A study of Mus musculus with 5 samples.

Results

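The miR-200 family is a group of 5 mouse miRNAs, mmu-miR-200a-3p, mmu-miR-200b-3p, mmu-miR-429-3p, mmu-miR-200c-3p, and mmu-miR-141-3p, named below without the mouse prefix. The members were taken by name from the Agilent mouse miRNA microarray, and they are 5 of the 1247 miRNAs on that array. MiRNAs were measured in whole kidney tissue of male C57B/6 mice after bilateral renal ischemia reperfusion injury (IRI), a model of acute kidney injury (AKI) in which the blood supply of both kidneys is clamped and then released. Blood flow was stopped for 30 min of warm ischemia, and kidneys were taken 6 h, 12 h, 24 h, or 48 h into reperfusion. Sham-operated mice had the surgery with no clamp, and the labels give no sampling time for them. All mice were perfused with cold saline before the kidneys were removed. The labels give 8 mice for each time point, but the data hold 1 array for each of the 5 groups, and the sources used here do not state whether RNA of several mice was pooled. No spread between mice was therefore measured and no test was possible. Errors are those that the scanner software gave within 1 array.

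MiRNAs are short RNAs that guide a silencing complex to messenger RNAs through the seed, bases 2 to 8 counted from the 5′ end. The miR-200 family is abundant in epithelial cells, kidney tubules included, and is low in mesenchymal cells. Its best known targets are Zeb1 and Zeb2, repressors of the gene for the adhesion protein E-cadherin, and the family is known for holding cells in the epithelial state. The messenger RNAs of these genes are not read by a miRNA array, so the epithelial origin of the signal could not be checked against them. In bulk tissue, fewer cells of a type and less RNA per cell cannot be told apart.

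The mature sequences are shown because the seed defines the family and because the members differ from each other in few other bases. The 5 RefSeq sequences are given 5′ to 3′ with the seed in capitals, and their positions are those of the minus strand of GRCm38.p6.
miR-200a-3p, chr4:156054911-156054932: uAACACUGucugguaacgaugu
miR-200b-3p, chr4:156055685-156055706: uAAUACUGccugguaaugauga
miR-429-3p, chr4:156053916-156053937: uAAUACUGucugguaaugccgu
miR-200c-3p, chr6:124718324-124718346: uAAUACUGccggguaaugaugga
miR-141-3p, chr6:124717917-124717938: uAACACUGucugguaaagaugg
The seed AACACUG is shared by miR-200a-3p and miR-141-3p, and the seed AAUACUG by the other 3 members. In the RefSeq table of 1679 mature miRNAs, no miRNA outside the family had either seed at bases 2 to 8. The genes lie in 2 clusters that cut across the seeds. Mir200b, Mir200a, and Mir429 span 1846 bases of chromosome 4 (156053905 to 156055750) within the long noncoding RNA gene Gm13648. Mir200c and Mir141 span 477 bases of chromosome 6 (124717914 to 124718390) between Phb2 and Ptpn6, in no other annotated gene. The annotation used gives whole genes without exons.

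Each member was read by 2 probes, and each probe was printed in 20 spots. All 10 probes were complementary to the 3′ end of their own miRNA, and each had 2 to 4 mismatches with the nearest other member. The longer probe of each member is shown with capitals at the bases that do not pair with that nearest member, since these bases are what separates the members on the array.
miR-200a-3p probe, against miR-141-3p: AcatcGttaccagacagt
miR-141-3p probe, against miR-200a-3p: CcatcTttaccagacag
miR-200b-3p probe, against miR-200c-3p: TcatcattaccAggcag
miR-200c-3p probe, against miR-200b-3p: TCcatcattaccCggc
miR-429-3p probe, against miR-200a-3p: acGGcAttaccagacagtA
No cross-hybridization between members was measured. Signals of different miRNAs come from different probes, so the members were not ranked by level. Sums over miRNAs are set only against a sum made in the same way on another array.

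A probe was counted as detected when its signal exceeded 3 times its error, and the signal of a miRNA was the sum over its detected probes. By this rule 219, 248, 279, 298, and 197 miRNAs were detected in sham and at 6, 12, 24, and 48 h, and 182 were detected on all 5 arrays, all 5 family members among them. The sham and 6 h arrays shared a slide and a scan, and the other 3 arrays came from a different slide, so slide and injury cannot be told apart in the comparison of sham with 12, 24, or 48 h. On that slide the 4 spike-in controls, RNAs added from outside the kidney, were 2.06 to 2.13 times as bright as on the sham array. The software also multiplied signals by an effective feature size, which was 0.774 and 0.776 at 12 and 24 h and 0.6 on the other arrays. Each member is therefore given unscaled, with 1 feature size on all arrays, and relative to the median of the 182 miRNAs, which no common factor of an array changes.

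The 3 members of the chromosome 4 cluster had their highest unscaled signal at 24 h and their lowest at 48 h. For miR-200a-3p the signal was 187 ± 15.4 (scanner error) in sham and 221 ± 18.2, 302 ± 24.6, 369 ± 30.1, and 147 ± 12.2 at 6, 12, 24, and 48 h. Each step in the order 48 h, sham, 6 h, 12 h, 24 h exceeded the combined scanner error, but with 1 feature size the 6 and 12 h signals, 221 and 234, did not differ beyond it. MiR-200b-3p, whose hairpin lies in the same cluster, had signals of 445 ± 38.6 in sham and 459 ± 39.9, 552 ± 47.5, 781 ± 67.3, and 355 ± 30.8 after IRI. The order was the same, and sham and 6 h did not differ beyond the error. For miR-429-3p, which has the seed of miR-200b-3p, the signals were 482 ± 34.4, 503 ± 35.9, 538 ± 38.3, 733 ± 52.1, and 411 ± 29.3. Its steps from sham to 6 h and from 6 h to 12 h were each within the error. The 12 h signal exceeded sham by slightly more than the error (log2 ratio 0.16 ± 0.15), and only the 24 h signal stood clearly above. With 1 feature size the 24 h signals of the cluster were still the highest of the 5 arrays, at 285, 604, and 567.

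In the chromosome 6 cluster, miR-141-3p followed the same order and miR-200c-3p did not. For miR-200c-3p the sham array had a signal of 156 ± 13.8, and the arrays of 6, 12, 24, and 48 h had 198 ± 17.6, 144 ± 12.8, 257 ± 22.3, and 118 ± 10.6. Unscaled, it was the only member whose 12 h signal lay below that of 6 h, and its 12 h and sham signals did not differ beyond the error. With 1 feature size 4 of the 5 members were lower at 12 h than at 6 h, and only miR-200a-3p was not. The 12 and 6 h signals were then 428 and 459 for miR-200b-3p, 417 and 503 for miR-429-3p, and 34.1 and 40.4 for miR-141-3p. The log2 ratio of miR-200b-3p, −0.10 ± 0.18, was within the error. For miR-200c-3p the 12 and 48 h signals on that scale were 112 and 118, and those of 6 and 24 h were 198 and 199, so that this miRNA had no 24 h peak of its own there. For miR-141-3p the signals were 36.3 ± 3.60, 40.4 ± 4.12, 43.96 ± 4.84, 68.5 ± 7.19, and 27.7 ± 3.22. Its steps from sham to 6 h and from 6 h to 12 h were each within the error, but unscaled 12 h exceeded sham by more (log2 ratio 0.28 ± 0.21). Only 1 of its 2 probes was detected at 12 and 48 h, where the sum therefore lacks the dimmer probe.

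**Figure D1:**
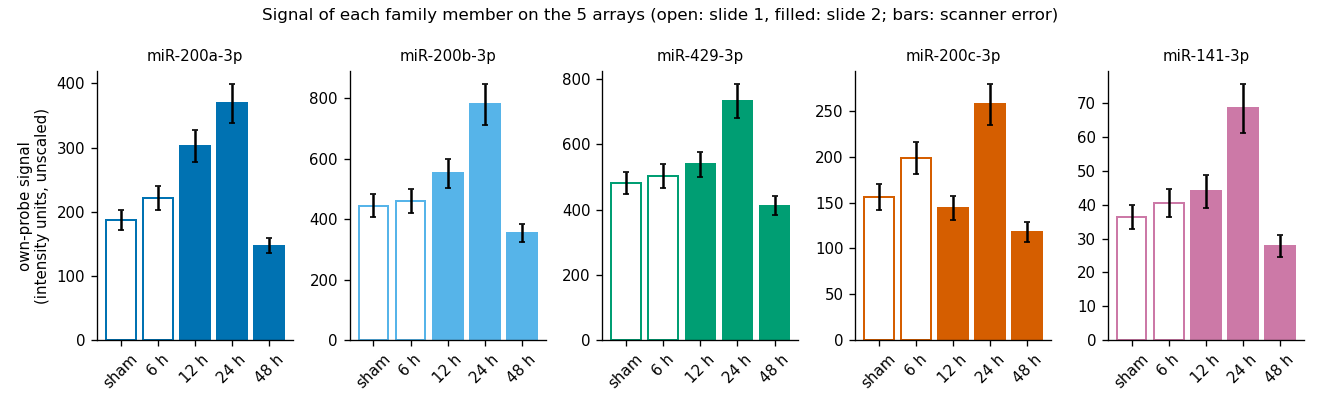
Unscaled signal of the 5 family members (1 panel each, intensity units, axes from 0) for sham and the 4 IRI times, with 1 array per bar; error bars are the scanner error, open bars are slide 1 and filled bars slide 2. All 5 members were highest at 24 h and lowest at 48 h, and in these unscaled signals only miR-200c-3p was lower at 12 h (144) than at 6 h (198). The height of the 12 and 24 h bars includes the larger feature size of these arrays.

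At 6 h, the one comparison with sham made within a slide and a scan, the family was close to sham. The unscaled log2 ratios over sham were 0.24 ± 0.17 for miR-200a-3p, 0.35 ± 0.18 for miR-200c-3p, 0.15 ± 0.20 for miR-141-3p, 0.062 ± 0.15 for miR-429-3p, and 0.047 ± 0.18 for miR-200b-3p. Only miR-200a-3p and miR-200c-3p differed from sham by more than the scanner error. The family median was 0.15, and the median of the 182 miRNAs was 0.16. Scaling by the 75th percentile or by quantiles turned the family median to −0.14 and −0.23. No member was past 1.5-fold in either direction, while 25.8% of the 209 miRNAs detected on both arrays were past it upward and 5.74% downward. Relative to the median, the members lay between −0.11 and 0.19, all within the middle 50% of the 182 miRNAs (23.9% past 1.5-fold higher and 7.66% lower on this scale).

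At 12 h the members lay farther apart than at any other time. The unscaled log2 ratio was 0.69 ± 0.17 for miR-200a-3p, 0.31 ± 0.18 for miR-200b-3p, 0.28 ± 0.21 for miR-141-3p, 0.16 ± 0.15 for miR-429-3p, and −0.12 ± 0.18 for miR-200c-3p. One member, miR-200a-3p, was past 1.5-fold upward, against 51.4% of the 208 miRNAs compared, and none was past it downward (0.962%) or past 2-fold upward (34.6%). With 1 feature size no member was past it upward (36.5%) or downward (5.77%). By summed probes only miR-200a-3p then had a ratio above 0 (0.32). The miR-141-3p sum set 1 probe at 12 h against 2 in sham. Its probe detected on all arrays was at 34.1 at 12 h with 1 feature size and at 31.2 in sham. The family median, which was the miR-141-3p ratio, was −0.093 with 1 feature size and 0.28 unscaled. Unscaled, it was 0.31 when only probes detected on all arrays were summed. The direction of the family median against sham at 12 h thus turned with the scaling. Scaling by the spike-in controls gave −0.78.

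Relative to the median of the 182 miRNAs at 12 h, miR-200a-3p was at 0.14, miR-200b-3p at −0.24, miR-141-3p at −0.27, miR-429-3p at −0.39, and miR-200c-3p at −0.66. MiR-200c-3p ranked 166 of 182 from the highest ratio and was the 1 member past 1.5-fold on this scale, against 10.6% of the miRNAs compared that were lower and 31.2% that were higher by as much. Of the 10 pairs of members, 7 differed by more than their combined scanner error and 2 by more than 2 times that error. These were miR-200a-3p and miR-200c-3p, which differed by 0.81 ± 0.25, and miR-200a-3p and miR-429-3p, which differed by 0.53 ± 0.22. At 6, 24, and 48 h, 2, 3, and 0 pairs passed 1 error, and none passed 2. Pairs of miRNAs outside the family were not counted, so no share stands beside these counts. The miR-141-3p sum lacked 1 probe at 12 and 48 h. On its probe detected on all arrays its unscaled 12 h ratio was 0.49. That was nearer to the 0.69 of miR-200a-3p and farther from the −0.12 of miR-200c-3p. The pairs were not recounted on that probe. MiR-200c-3p was the lowest of the 5 in all settings tried except quantile normalization and the processed table, where miR-141-3p was lower, at −1.14 and −1.15 against sham.

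The low 12 h value of miR-200c-3p was seen on both of its probes, whose log2 ratios over sham were −0.14 for the 16-base and 0.013 for the 15-base probe. The other 8 probes of the family gave 0.093 to 0.80 at 12 h, the undetected probe of miR-141-3p included. Over the family and the 4 time points, the 2 probes of a member differed by a median of 0.11 and at most by 0.27, for miR-200c-3p at 24 h. Against the 6 h array, which is on a different slide, miR-200c-3p at 12 h was at −0.46 ± 0.18 and ranked 175 of 182. Against the 24 h array of the same slide and scan, its 24 h over 12 h ratio was 0.84 ± 0.18, rank 30 of 182, beside a median of 0.46. The other members had 24 h over 12 h ratios of 0.29 to 0.64, so miR-200c-3p had the highest of the 5 ratios within that slide. The 0.64 was that of miR-141-3p, whose 12 h sum lacked 1 probe. Its probe detected on all arrays was at 0.49 over sham at 12 h and 0.93 at 24 h, a smaller step.

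**Figure D2:**
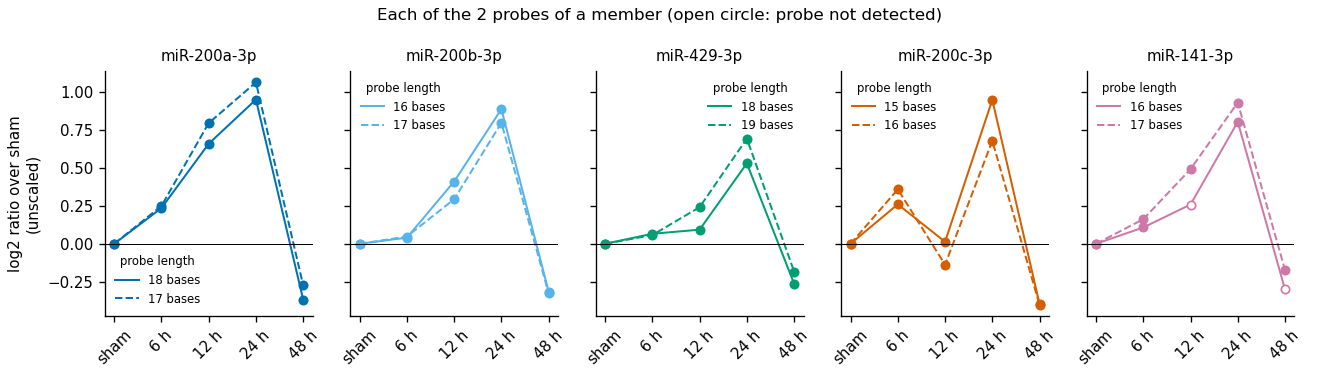
Unscaled log2 ratio over sham of each of the 2 probes of every member (y axis) on the 5 arrays (x axis, sham set to 0); each line is 1 probe on 1 array per group, and open circles are probes that were not detected. The lines of a member run close together, with a largest gap of 0.27 between detected probes at 24 h for miR-200c-3p, whose probes are both near 0 at 12 h.

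At 24 h all 5 members were higher than sham in unscaled signal. The log2 ratios were 0.98 ± 0.17 for miR-200a-3p, 0.92 ± 0.21 for miR-141-3p, 0.81 ± 0.18 for miR-200b-3p, 0.72 ± 0.18 for miR-200c-3p, and 0.61 ± 0.15 for miR-429-3p. All 5 were past 1.5-fold, as were 85.2% of the 209 miRNAs compared, and 0.478% were past it downward. None of the members was past 2-fold, which 55% of these miRNAs were. With 1 feature size the ratios were 0.61, 0.54, 0.44, 0.35, and 0.23 in the same order, and 1 member, miR-200a-3p, was past 1.5-fold upward beside 57.9% of the miRNAs. Scaling by the spike-in controls, by the 75th percentile, or by quantiles turned the family median to −0.28, −0.35, and −0.23. The higher unscaled signal at 24 h was shared by 181 of the 182 miRNAs, whose median of 1.03 was above every member. Relative to that median the members were at −0.056, −0.12, −0.22, −0.31, and −0.43, and 4 of the 5 lay within the middle 50%. None was past 1.5-fold on this scale (26.3% higher, 9.09% lower). MiR-429-3p ranked lowest of the 5, at 151 of 182. The distance from the median depended on the reference. Against the 137 of these miRNAs numbered under 1000, the family median was −0.086 in place of −0.22.

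At 48 h all 5 members were below sham in unscaled signal, each by more than the scanner error of the summed probes, and the family median stayed below 0 under every scaling tried (−1.39 by the spike-in controls). Most detected miRNAs were below sham as well, since only 71 of the 182 were above it. The log2 ratios were −0.40 ± 0.18 for miR-200c-3p, −0.39 ± 0.22 for miR-141-3p, −0.35 ± 0.17 for miR-200a-3p, −0.33 ± 0.18 for miR-200b-3p, and −0.23 ± 0.15 for miR-429-3p. None was past 1.5-fold, where 23.4% of the 188 miRNAs compared were lower and 16.5% higher by as much. Relative to the median of −0.23, the members lay between −0.17 and 0.0016, each less than the scanner error away from it, with none past 1.5-fold (21.3% higher, 12.2% lower). For miR-141-3p, the probe detected on all arrays gave −0.17 at 48 h and 0.49 at 12 h, where the sum of detected probes gave −0.39 and 0.28. On that probe the 48 h value of miR-141-3p was within the scanner error of 0.22, so this member was then not below sham beyond the error, nor was it with no detection limit (−0.19). Feature sizes were equal in sham and at 48 h, so the 1 feature size scale did not change the values.

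Within the second slide, signals were lower at 48 h than at 24 h for every member. The log2 ratios of 48 h over 24 h were −1.33 for miR-200a-3p, −1.31 for miR-141-3p, −1.14 for miR-200b-3p, −1.12 for miR-200c-3p, and −0.83 for miR-429-3p, beside a median of −1.24. With 1 feature size they were −0.95, −0.94, −0.77, −0.75, and −0.46, beside −0.87, and 172 of the 182 miRNAs were below 0. The miR-141-3p ratios set 1 detected probe at 48 h against 2 at 24 h. Its probe detected on all arrays was at 0.93 over sham at 24 h and −0.17 at 48 h, a smaller drop. The 24 h and 48 h arrays of this slide were scanned separately.

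**Figure D3:**
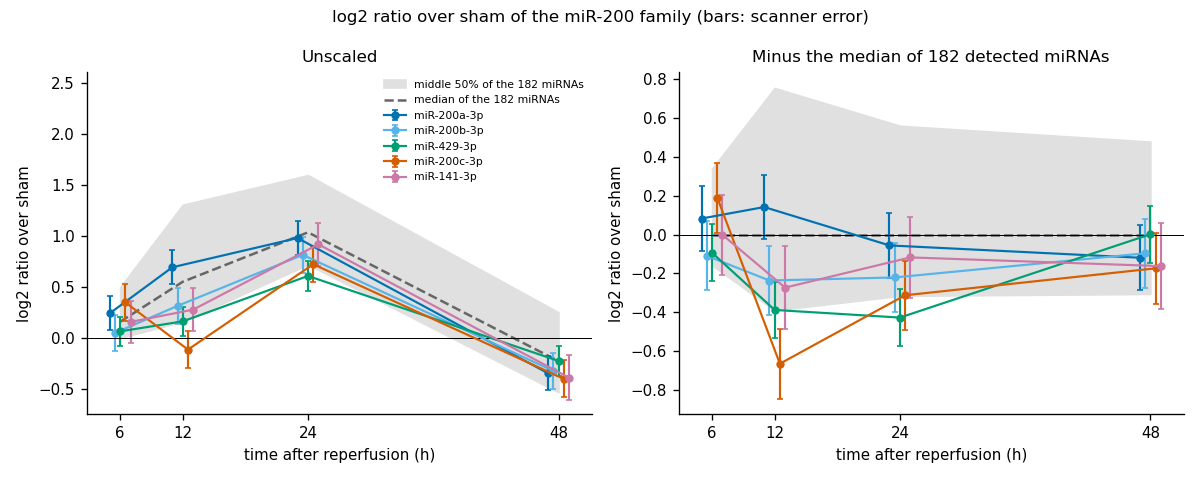
Log2 ratio over sham of the 5 members (points, shifted sideways for legibility, error bars are the scanner error) against time after reperfusion in h, unscaled on the left and minus the median of 182 miRNAs on the right; the dashed line is that median and the grey band the middle 50% of these miRNAs. On the left the family follows the band up to 24 h and below 0 at 48 h. On the right 18 of the 20 points lie in the band, miR-200c-3p at 12 h (−0.66) is the lowest, and a factor common to all miRNAs of an array has no effect.

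Sorted by seed, the 2 members with AACACUG had a mean log2 ratio 0.36 ± 0.17 above the 3 members with AAUACUG at 12 h and 0.23 ± 0.16 above them at 24 h. The groups did not overlap at 24 h and did at 12 h, where miR-141-3p lay between miR-200b-3p and miR-429-3p with 1 of its probes missing from the sum. On the miR-141-3p probe detected on all arrays the 12 h overlap was gone, since its 0.49 lay above the 0.31 of miR-200b-3p. After quantile normalization miR-141-3p was the lowest member at both times, at −1.14 and −0.40, as it was in the processed table, and with normexp its 0.34 at 24 h lay below the 0.41 of miR-200b-3p. The separation by seed at 24 h was therefore absent in these 3 settings. At 6 and 48 h the difference was 0.045 ± 0.16 and −0.051 ± 0.17. Sorted by chromosome, the members of chromosome 4 were 0.31 ± 0.17 above those of chromosome 6 at 12 h, with overlap. The chromosome difference at 6, 24, and 48 h was −0.13, −0.02, and 0.097, within the scanner error of 0.17 each time. By summed probes the chromosome groups did not overlap at 48 h, as the seed groups did not at 24 h. On the miR-141-3p probe detected on all arrays, its −0.17 at 48 h lay above the −0.23 of miR-429-3p, so they overlapped. Each of the means compared rests on 2 or 3 miRNAs, grouped with the values known.

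The courses nearest to the family mean, relative to the median and over the 4 time points, belonged to miR-30c-2-3p, let-7g-5p, miR-532-5p, miR-130a-3p, and miR-103-3p. Their root mean square distances were 0.064, 0.10, 0.11, 0.12, and 0.12 on the log2 scale, among 177 miRNAs outside the family with a median distance of 0.48. The members' own distances from their mean were 0.061 for miR-141-3p, 0.066 for miR-200b-3p, 0.14 for miR-429-3p, 0.22 for miR-200c-3p, and 0.23 for miR-200a-3p. Each member is part of that mean, which lowers its distance by construction, and the 177 miRNAs are not, so the distances are not alike. These 4-point courses share their sham array and are descriptions.

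The other arm of each hairpin, the 5p arm, is made from the same precursor and is usually degraded. Both arms were detected for the hairpins of miR-200a and miR-200b, which are shown 5′ to 3′ with the 5p arm and then the 3p arm in capitals.
Mir200a, chr4:156054896-156054985: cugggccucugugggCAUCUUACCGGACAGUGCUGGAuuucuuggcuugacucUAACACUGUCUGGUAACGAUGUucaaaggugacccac
Mir200b, chr4:156055681-156055750: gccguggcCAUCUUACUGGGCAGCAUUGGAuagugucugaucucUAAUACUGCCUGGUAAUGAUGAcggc
By its own probes miR-200b-5p had signals of 5.26 ± 0.80 in sham and 5.28 ± 0.91, 5.67 ± 1.16, 7.87 ± 1.59, and 4.03 ± 0.91 after IRI, all from 1 of its 4 probes. Its log2 ratio at 24 h was 0.58 and at 48 h −0.38, and sham, 6 h, and 12 h were neighbours within the error. MiR-200a-5p had 8.57 ± 1.28 in sham, from 2 probes, and 6.07 ± 1.14, 4.97 ± 1.40, and 8.54 ± 1.99 at 6, 12, and 24 h, from 1 probe each, and was not detected at 48 h. MiR-429-5p, miR-200c-5p, and miR-141-5p were detected on no array. MiR-205-5p, an epithelial miRNA outside the family that also targets Zeb1 and Zeb2, was detected on no array, nor was miR-205-3p.

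The total gene signal, a second summary written by the scanner software, gave other levels for the 5p arms. For miR-200b-5p it was 450, 464, 558, 788, and 359, of which 98.8 to 99.0% equalled the signal of miR-200b-3p on the same array within 0.001%. For miR-200a-5p it was 196, 227, 307, and 377 in sham and at 6, 12, and 24 h, of which 95.6 to 98.4% equalled the signal of miR-200a-3p. In each case the first probe of the 5p arm was not detected. The same held for miR-141-3p at 12 and 48 h, where 55.0 and 51.4% of its total gene signal equalled the signal of miR-140-5p. With the total gene signal its log2 ratio was 1.43 at 12 h and 0.65 at 48 h, against 0.28 and −0.39 by its own probes.

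**Figure D4:**
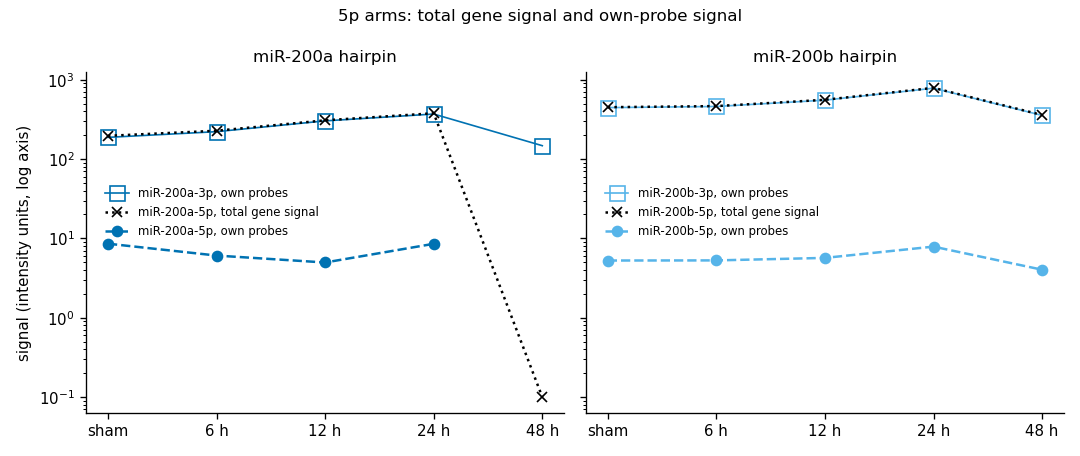
Signal (intensity units, log axis) on the 5 arrays for the hairpins of miR-200a (left) and miR-200b (right), with squares for the 3p arm by its own probes, circles for the 5p arm by its own probes, and crosses for the total gene signal of the 5p arm. Where the 5p arm was detected, the crosses lie on the squares, while the circles range from 4.03 to 8.57. The cross at 0.1 is the blank value of miR-200a-5p at 48 h.

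Other cell types were followed by short lists of miRNAs. Of 4 kidney tubule miRNAs, 3 were detected on all arrays and miR-215-5p on none, and their summed signal was 893 in sham and 640 to 1250 over the arrays, highest at 24 h and lowest at 48 h. The 3 did not move alike. The log2 ratios at 6, 12, 24, and 48 h were 0.021, 0.26, 0.36, and −0.50 for miR-192-5p, 0.16, 0.78, 0.77, and −0.46 for miR-194-5p, and 0.062, 1.12, 2.69, and 0.19 for miR-204-5p. MiR-204-5p was dim, and its 48 h signal of 8.29 ± 1.84 did not differ from the 7.26 ± 1.41 of sham beyond the scanner error. For endothelium 1 of 2 miRNAs was detected throughout (586 to 1284 summed), for stroma 4 of 5 (164 to 381), and for leukocytes 2 of 6, with miR-142-5p and miR-150-5p on no array (47.8 to 111). The leukocyte miRNA miR-223-3p was at 24.8 in sham and 55.7, 82.7, 39.5, and 41.7 after IRI, highest at 12 h. MiR-155-5p, also detected throughout, was at 8.66 in sham and 10.69, 10.3, 18.7, and 14.3 after IRI, highest at 24 h, so the detected leukocyte miRNAs had no common peak. Of 4 red blood cell miRNAs, 3 were on the array, and miR-144-3p and miR-144-5p were detected on no array. MiR-451a was detected throughout, at 159 in sham and 500, 234, 538, and 105 after IRI. Its unscaled signal was higher at 6 and 24 h than at 12 h, as were those of miR-200c-3p unscaled and of every member but miR-200a-3p with 1 feature size. On that last scale 84 of the 182 miRNAs were lower at 12 h than at 6 h, and 36 were lower at 24 h than at 12 h. The 12 h over 6 h ratio of miR-200b-3p was within the scanner error (−0.10 ± 0.18). For miR-141-3p the probe detected on all arrays was at 34.1 at 12 h and 35.0 at 6 h. The part of these cell types in the family values was not tested.

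The family made up 2.004% of the summed signal of all detected miRNAs in sham and 1.84, 1.27, 1.61, and 1.41% at 6, 12, 24, and 48 h. These shares depend on probe brightness and on which miRNAs were detected, 197 to 298 per array. The 10 miRNAs with the highest signals on each array weighed on them. Without these 10, taken separately on each array, the family was at 5.53% in sham and at 4.78, 3.74, 4.46, and 4.97% after IRI. This share was lowest at 12 h and nearer to sham at 48 h.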

How the data were processed

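Kidney miRNAs of 5 groups, with 1 Agilent mouse miRNA array each, were analysed. Groups were taken from the sample labels. The authors deposited the intensity values of Agilent Feature Extraction 10.7.1.1, as named in the submitters' processing notes, corrected within each array for background and spatial trend, with no scaling between arrays. A deposited table of processed log2 values, of unknown scale and centring, served as an alternative. On the sham array its median was −3.12, and after IRI −3.22, −3.30, −3.32, and −3.01.

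Members were matched by systematic name. Probe signals above 3 times their error were summed once per probe, and log2 ratios over sham were computed unscaled, with 1 effective feature size, and minus the median of the 182 miRNAs detected on all arrays. Errors of ratios combine the scanner errors of 2 arrays. A 1.5-fold limit served to count members. No array had a saturated spot among its 52044. Precision is limited by how few arrays there are. Scanner errors of member signals were 7.11 to 11.6%, and errors from the spread of the spots alone were 0.395 to 1.89%.

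Alternatives were scaling by the 75th percentile, quantiles, or 4 spike-in controls, normexp with an offset of 50, mean spot signals, total gene signals, no detection limit, miRNAs numbered under 1000 as the reference, a 2-fold limit, and the processed table. Sums over probes detected on all arrays, and counts with 1 feature size, were added after seeing the data. The named miRNAs were the members, the other arms of their hairpins, miR-205-5p and miR-205-3p, cell type lists, and the 5 miRNAs with the most similar course. Members and lists were chosen with earlier results of these data known.

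Sequences, positions, and gene neighbours come from RefSeq (GRCm38.p6), which named 1017 of the 1247 miRNAs. Normexp was run in limma 3.58.1 under R 4.3.3, all else in Python 3.11.15 with pandas 2.3.3 and numpy 2.4.6, and plots were drawn with matplotlib 3.10.9. The calculation was tested on simulated data of the 1247 miRNAs, where 13 of 13 checks were recovered. The other measurements of the study were not analysed here.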

Additional observations from a re-analysis of the deposited data

Results flagged for a closer look

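Signal that did not come from a miRNA's own probes was present in the total gene signal of 3 miRNAs of these hairpins. For miR-141-3p it was 53.7 at 12 h and 29.2 at 48 h, and 0 in sham, where the total gene signal was its own 36.3. For miR-200a-5p it was 221, 302, and 369 at 6, 12, and 24 h, and 187 in sham. For miR-200b-5p it was 459, 552, and 781 at 6, 12, and 24 h, and 445 in sham. These values were singled out because the column that holds them lies outside the own-probe measurement of the main comparisons, where it served only as an alternative, and because they exceeded the sham level. Each equalled the signal of another miRNA on the same array, miR-140-5p for miR-141-3p and the 3p arm for the 5p arms, within 0.001%. In each case the first probe of the miRNA, by probe number, was not detected.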

How the results depend on the processing

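Against sham, the family median depended on the scaling between arrays. At 6 h it was −0.14 with the 75th percentile, −0.23 after quantile normalization, and −0.23 in the processed table, where unscaled it was 0.15. At 12 h, unscaled at 0.28, it was −0.093 with 1 feature size, −0.056 with mean spot signals, −0.048 with normexp, −0.36 with the 75th percentile, −0.58 with quantiles, −0.78 with spike-in controls, and −0.68 in the processed table. At 24 h, unscaled at 0.81, it was 0.44 with 1 feature size, 0.44 with mean spot signals, and 0.34 with normexp, and it turned to −0.35 with the 75th percentile, −0.23 with quantiles, −0.28 with spike-in controls, and −0.23 in the processed table. At 48 h the spike-in controls gave −1.39. The feature size accounts by construction for the change it makes, and the cause of the others was not tested.

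Single members at 24 h turned in the same settings. For miR-200a-3p, miR-200b-3p, miR-429-3p, miR-200c-3p, and miR-141-3p the log2 ratios were −0.18, −0.35, −0.56, −0.44, and −0.25 with the 75th percentile and −0.11, −0.28, −0.48, −0.37, and −0.17 with spike-in controls. Quantile normalization gave −0.10, −0.23, −0.32, and −0.40 for these miRNAs without miR-200b-3p, and the processed table −0.094, −0.23, −0.31, and −0.41. At 12 h miR-200a-3p was at −0.36 with spike-in controls, and miR-200a-5p at 0.65 with the total gene signal. Of the 267 values of single miRNAs, 130 stayed within the scanner error of the main value, 117 moved by more, and 20 were counted as turned. Changes of sign are also among the 117. With spike-in controls at 12 h, miR-200b-3p was at −0.74, miR-429-3p at −0.89, and miR-141-3p at −0.78. Unscaled they were at 0.31, 0.16, and 0.28.

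Relative to the median of the detected miRNAs, 31 of 32 values of the family median stayed within the scanner error. The exception was 0.0032 at 24 h in the processed table. The ranges were −0.037 to 0.045 at 6 h, −0.28 to −0.10 at 12 h, −0.23 to 0.0032 at 24 h, and −0.24 to −0.021 at 48 h.

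Members past 1.5-fold upward, unscaled, numbered 1 at 12 h (51.4% of the 208 miRNAs compared) and 5 at 24 h (85.2% of 209). Past 2-fold there were 0 at 12 h (34.6%) and 0 at 24 h (55%). Past 1.5-fold upward with 1 feature size there were 0 (36.5%) and 1 (57.9%). No paired analysis was possible because 1 array stood for each group, and leaving out a replicate was not possible either. At 12 and 48 h the dimmer probe of miR-141-3p was not above the detection limit, so its sum there is a bound from below. Differences between mice were not measured.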
